A study of Rattus norvegicus with 12 samples.

Results

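The genes described here are 10 activity-regulated immediate early genes of the rat, namely Arc, Npas4, Egr1, Egr2, Egr3, Egr4, Nr4a1, Nr4a2, Nr4a3 and Homer1. They were taken by name, without a filter on their measured values, from the 15154 genes that could be named on the array. The list was set with earlier results of these data known. They lie on 13 of its 30367 probes that are not controls. Each gene was followed on the probe with the highest mean log2 signal over all arrays, and the other probe of Egr3, Nr4a2 and Nr4a3 was used as a check.

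Immediate early genes are transcribed within minutes of synaptic activity or calcium entry, without the need for new protein. Factors that are already in the nucleus, such as CREB at cyclic AMP response elements and the serum response factor at CArG boxes, switch them on, and most of their transcripts are short-lived. Part of the group encodes transcription factors (Npas4, the Egr zinc finger proteins and the Nr4a nuclear receptors), while Arc and Homer1 encode proteins that act at the synapse. In the hippocampus these genes are widely used as markers of neurons that were recently active, and ischemia with its release of glutamate is a known trigger of them.

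The RNA came from primary hippocampal neurons of Wistar rat embryos, labelled E18 and given as E18-E19 in the study's methods, kept in Neurobasal medium for 14-15 days. In the OGD groups the cultures spent 2 h without oxygen, in a saline buffer in which sucrose replaced glucose, and in the Ctrl groups they spent the same time in air and CO2 in the buffer with glucose. Both were then returned to conditioned medium and collected 7 h or 24 h later, which gives 4 groups of 3 arrays, described by the submitters as independent biological replicates. The cultures are not purified neurons, since the study's methods state that they hold some glia, and the RNA of each array was pooled over wells.

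Each array was read in 1 color, and the level given below is the log2 signal of a probe minus the median of its array. A level of 0 is therefore the median probe of that array, and levels of different genes cannot be set against each other because each probe binds with its own strength. Ctrl arrays had a median spot intensity of 402 to 660 units and OGD arrays one of 131 to 546, and replicate 1 of OGD was the dimmest array of each time (131 units at 24 h and 234 units at 7 h). Between 78.3% and 87.1% of spots were well above background. Replicates 1 and 2 of OGD at 7 h and replicate 1 of OGD at 24 h were scanned in an earlier session of their day than the other arrays. All 13 member probes were well above background and none was saturated on each of the 12 arrays. All 10 neuronal marker genes of the list used as a check, from Map2 to Gad1, were well above background on every array, and so were all 7 astrocyte markers with a probe and 5 of the 8 microglial markers.

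The sequences before the starts of these genes were searched for the elements named above and for the sites of the member proteins themselves. A window of 250 bases before the annotated start was read from RefSeq (build GRCr8) and was given for 7 of the 10 genes, all but Arc, Egr3 and Nr4a3. The motifs were searched on both strands. They were the full cyclic AMP response element TGACGTCA, its core TGACG, the CArG box, the Egr site GCGNGGGCG and the Nr4a element AAAGGTCA, and the core lies within the full element. The windows of Egr4, Nr4a1 and Nr4a2 are shown because these genes were called lower after OGD at 24 h. That of Egr2 is shown as an example with a CArG box beside a core. The window of Egr1, which also holds both, is not shown. Capitals mark the motifs, and a core on the other strand reads CGTCA.
Egr2, chr20:21054442-21054691, minus strand: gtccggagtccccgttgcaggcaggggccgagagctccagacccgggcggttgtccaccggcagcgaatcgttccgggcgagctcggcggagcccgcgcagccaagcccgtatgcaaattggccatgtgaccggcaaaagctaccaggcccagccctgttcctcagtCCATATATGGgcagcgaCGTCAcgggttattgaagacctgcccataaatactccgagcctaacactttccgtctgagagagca
Egr4, chr4:119607818-119608067, minus strand: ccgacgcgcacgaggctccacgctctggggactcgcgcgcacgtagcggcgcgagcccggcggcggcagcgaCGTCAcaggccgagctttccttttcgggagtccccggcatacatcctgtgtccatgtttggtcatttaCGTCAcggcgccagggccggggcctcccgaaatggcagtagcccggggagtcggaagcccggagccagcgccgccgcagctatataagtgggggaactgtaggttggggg
Nr4a1, chr7:134259888-134260137, plus strand: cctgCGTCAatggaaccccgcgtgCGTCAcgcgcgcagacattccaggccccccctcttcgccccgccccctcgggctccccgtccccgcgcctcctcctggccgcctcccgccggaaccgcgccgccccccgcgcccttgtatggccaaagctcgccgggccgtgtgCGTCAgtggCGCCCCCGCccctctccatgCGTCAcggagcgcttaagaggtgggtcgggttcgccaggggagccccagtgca
Nr4a2, chr3:62104888-62105137, minus strand: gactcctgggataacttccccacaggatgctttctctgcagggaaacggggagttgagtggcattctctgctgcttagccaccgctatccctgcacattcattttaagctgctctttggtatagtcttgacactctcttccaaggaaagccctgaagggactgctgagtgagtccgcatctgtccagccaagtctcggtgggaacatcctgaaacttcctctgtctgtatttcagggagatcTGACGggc

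The core TGACG was found in 5 of the 7 windows, beside 18.2% of the 33469 windows of that length. It occurred 4 times in that of Nr4a1, 2 times in those of Egr1 and Egr4, and 1 time in those of Egr2 and Nr4a2. CArG boxes were found in 2 windows, with 2 in that of Egr1 and 1 in that of Egr2, beside 1.5% of all windows. The Egr site was found 1 time, in the window of Nr4a1, beside 4.29% of all windows. The full response element (1.59% of all windows) and the Nr4a element (1.24%) were found in none of the 7, and the windows of Npas4 and Homer1 held none of the motifs. These matches describe the letters of the windows only, and the arrays carry no measurement of binding there.

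**Figure D1:**
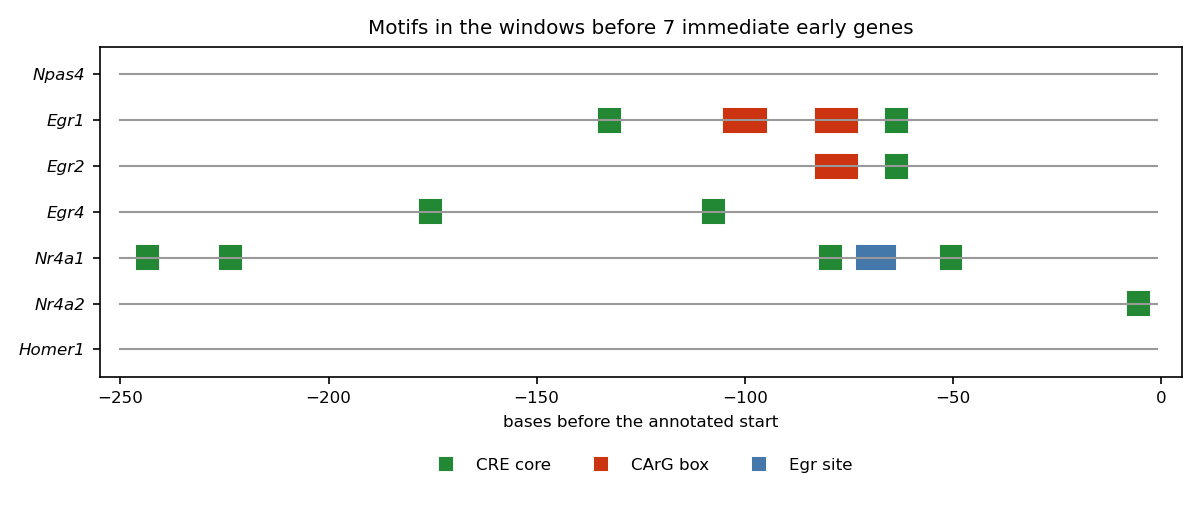
Positions of the motifs in the 250 bases before the annotated start of the 7 genes with a window, with the start at 0 on the horizontal axis in bases and 1 line for each gene. The 4 cores of Nr4a1 lie on both sides of its Egr site, and a CArG box lies 83 to 74 bases before the start in both Egr1 and Egr2.

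The main question was whether the transcripts of these genes differed between OGD and Ctrl cultures after 7 h and after 24 h of recovery. At 24 h, Egr4, Nr4a1, Nr4a2 and Nr4a3 were lower in OGD cultures, each at 0.467 to 0.489 of the Ctrl level, while at 7 h Egr4 alone was lower by that measure. No member was called higher at either time on its brightest probe. A gene was called when its p in limma, a linear model with a moderated spread, was under 0.05 without adjustment and its fold at least 2, the thresholds that the methods of the study name. By the methods' t-test itself, run on the same values, 1 member was called at 7 h and 0 at 24 h. No probe on the array reached an adjusted p under 0.05 for OGD against Ctrl, the lowest being 0.117 at 7 h and 0.209 at 24 h, with 3590 and 4160 probes at an unadjusted p under 0.05. The calls below are therefore nominal ones, and the p-values set a difference of group means against the spread within the groups of these 12 arrays.

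At 7 h, 1 of 10 members was called lower and 0 were called higher, beside 1.66% of all probes called lower and 2.08% called higher (3.74% in either direction). Of the members, 7 had a log2 fold change above 0 and 3 below it, with a median of 0.34 and a range from -1.22 to 0.89, while the median of all named genes was -0.11. The groups did not overlap for 4 members, with OGD above Ctrl for Nr4a1 and Nr4a3 and below it for Egr4 and Homer1, beside 10.6% of all probes with OGD above and 15.5% with OGD below. At 24 h, 4 of 10 members were called lower and 0 higher, beside 1.96% and 3.71% of all probes (5.67% in either direction). A total of 9 members were below 0, and the median was -0.96 with a range from -1.14 to 0.38, while the median of all named genes was -0.03. The groups did not overlap for Npas4, Egr1, Nr4a1 and Nr4a3, all with OGD below, beside 7.02% of all probes, and for none with OGD above, beside 10.9%. An unadjusted p under 0.05 was reached by 6 members at 24 h, all lower in OGD, beside 13.7% of all probes in either direction, and by 1 at 7 h, beside 11.8%. The share called lower at 24 h was thus above that of the array, in a list set with earlier results of these data known. The 7 h call rests on 1 gene.

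**Figure D2:**
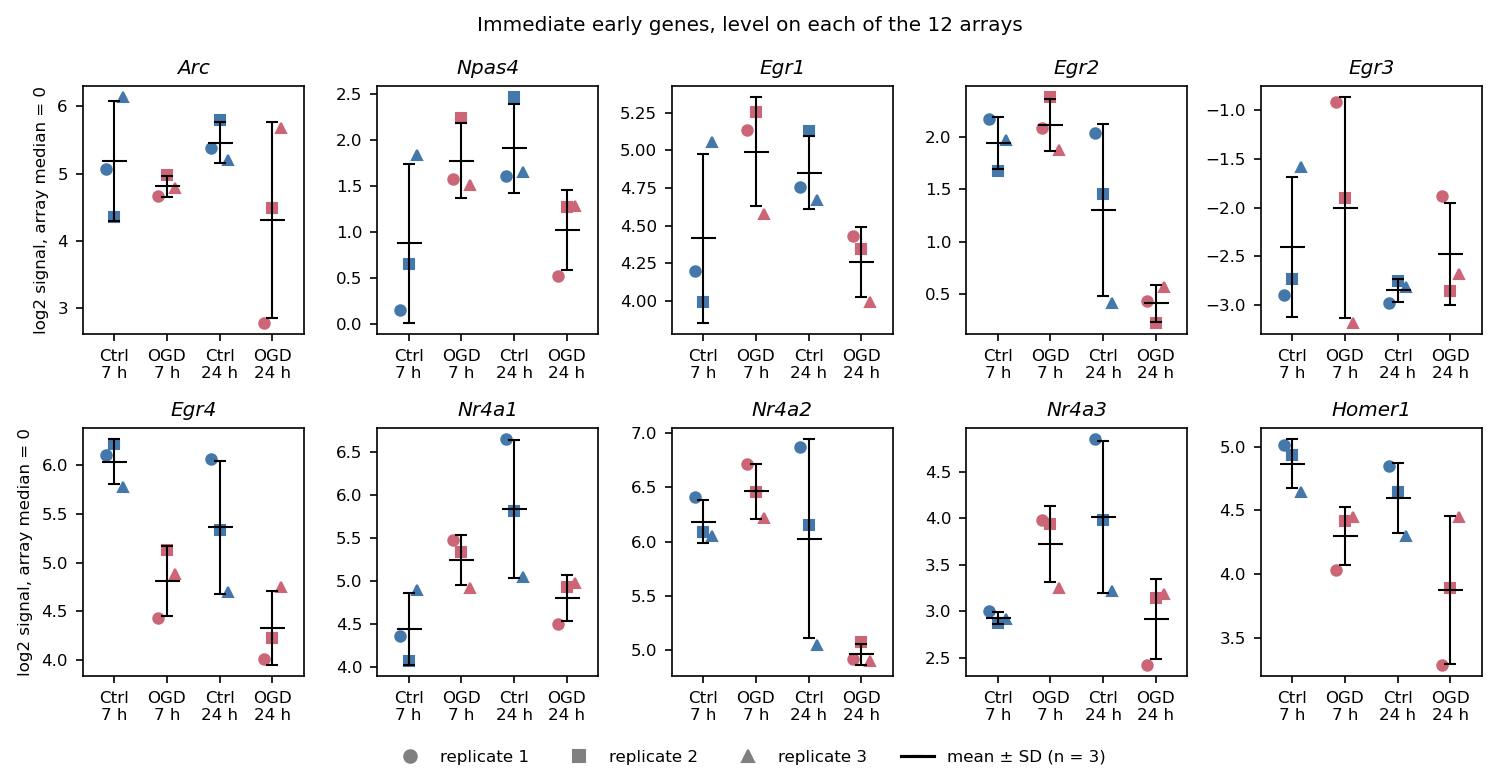
Level of each gene on each of the 12 arrays, as log2 signal with the median of the array at 0, in Ctrl (blue) and OGD (red) cultures at 7 h and 24 h, with replicates 1, 2 and 3 as circles, squares and triangles and the bars giving mean ± SD (n = 3). Each panel has its own scale, and in the 24 h Ctrl cultures the circle lies above the triangle for Egr2, Egr4, Nr4a1, Nr4a2 and Nr4a3.

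Among the transcription factors of the Egr family, which bind the same GC-rich DNA element through 3 zinc fingers, Egr4 was the member called at both times. Its level at 7 h was 6.11, 6.22 and 5.78 in Ctrl replicates 1 to 3 and 4.43, 5.12 and 4.88 in OGD replicates 1 to 3. All OGD values lay below all Ctrl values, and thus also on 3 of 3 slides, each slide holding the Ctrl and OGD arrays of 1 replicate number. Where the groups do not overlap, the slide count follows from that and adds nothing. This gave a log2 fold change of -1.22 (SE 0.34), which is 2.33-fold lower, with an unadjusted limma p of 0.00461 and an adjusted p of 0.271. With each of the 6 arrays of that time left out in turn it was between -1.38 and -1.03, and it was -0.995 with an unadjusted p of 0.0170 on the slides of replicates 2 and 3 alone, just under the fold that a call needs. In the later scan session, which holds 1 OGD array and 3 Ctrl arrays of 7 h, it was -1.15.

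At 24 h the level of Egr4 was 6.06, 5.33 and 4.70 in Ctrl and 4.02, 4.23 and 4.75 in OGD cultures. The 2 groups overlapped, since the lowest Ctrl culture, replicate 3, and the highest OGD culture, also replicate 3, were close together. In the model the log2 fold change was -1.03 (SE 0.34, 2.05-fold lower), with an unadjusted limma p of 0.0121 and an adjusted p of 0.290. OGD was below Ctrl on 2 of 3 slides.

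Egr1 (also known as Zif268), the member of the family most often used as an activity marker in the hippocampus, had levels of 4.20, 3.99 and 5.05 in Ctrl and 5.14, 5.26 and 4.58 in OGD cultures at 7 h. Ctrl replicate 3 lay within the OGD range, and the other 2 Ctrl cultures below it. The log2 fold change was 0.58 (SE 0.30) with an unadjusted p of 0.0801, which is no call, and it was -0.20 when the arrays were scaled to a spike-in probe, a setting that moved the median of all probes at 7 h from -0.06 to -0.83. At 24 h Egr1 was at 4.76, 5.13 and 4.67 in Ctrl and at 4.43, 4.34 and 3.99 in OGD cultures. All OGD values lay below all Ctrl values, and thus also on 3 of 3 slides, with a log2 fold change of -0.59 (SE 0.30) and an unadjusted limma p of 0.0721.

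Egr2 (Krox20), which outside the brain directs myelination by Schwann cells, did not separate the groups at 7 h, with levels of 2.17, 1.68 and 1.97 in Ctrl and 2.08, 2.38 and 1.88 in OGD cultures and a log2 fold change of 0.17 (SE 0.35, p of 0.632 in limma). At 24 h its levels were 2.04, 1.46 and 0.41 in Ctrl and 0.43, 0.23 and 0.57 in OGD cultures. The OGD cultures were close together while the Ctrl cultures spread over 1.63 log2 units, and Ctrl replicate 3 was as low as the OGD cultures. The log2 fold change of -0.89 (SE 0.35) had an unadjusted p of 0.0281 and an adjusted p of 0.321, and at 1.86-fold lower it was under the fold for a call. It was -1.34 and passed without Ctrl replicate 3, and it was -0.52 with an unadjusted p of 0.130 without Ctrl replicate 1.

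Egr3 was the only member with a value above 0 at both times, and neither was called. On its brighter probe the level ranged from -2.90 to -1.59 in Ctrl and from -3.18 to -0.92 in OGD cultures at 7 h, and from -2.98 to -2.75 and from -2.86 to -1.88 at 24 h. The log2 fold changes were 0.40 (SE 0.53) and 0.38 (SE 0.53). Both turned negative with spike-in scaling (-0.38 and -0.65) and with the scan session as a block (-0.49 and -0.07). The high OGD values were those of the replicate 1 arrays, and without OGD replicate 1 the 7 h value was -0.14. Egr3 was dim, with intensities from 20.5 to 88.7 units on its brighter probe and from 18.9 to 48.1 units on the other. The lowest on the brighter probe, 20.5 units, was that of OGD replicate 1 at 24 h. Its level was the highest of that time only after the low median of its array (131 units) was taken off. On the other probe the 24 h levels were -3.31, -2.96 and -2.92 in Ctrl and -1.52, -2.40 and -2.31 in OGD cultures, which did not overlap, with a log2 fold change of 0.99 (SE 0.28), an unadjusted p of 0.00556 and an adjusted p of 0.269. The intensities behind these levels did overlap, at 18.9 to 28.4 units in Ctrl and 26.2 to 48.1 units in OGD cultures. The highest level, -1.52, was again that of OGD replicate 1, at 26.2 units on the dimmest array. At 1.98-fold higher, that probe also stayed under the fold for a call.

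The Nr4a genes encode nuclear receptors that act without a known physiological ligand. Their 7 h values were above 0 and their 24 h values below it, for each of the 3 genes and on every slide when followed on the brightest probes, although the 7 h value of Nr4a2 turned negative with spike-in scaling (-0.50) and with normexp background correction (-0.30). For Nr4a1 and Nr4a3 the sign on every slide follows from groups that did not overlap at either time. Nr4a1 (Nur77) had levels of 4.36, 4.07 and 4.90 in Ctrl and 5.47, 5.34 and 4.91 in OGD cultures at 7 h. The groups did not overlap, but OGD replicate 3 exceeded Ctrl replicate 3 by 0.019 log2 units only. This gave a log2 fold change of 0.80 (SE 0.38, 1.74-fold higher) with an unadjusted limma p of 0.0569 and an adjusted p of 0.438, and without Ctrl replicate 3 it was 1.03 with an unadjusted p of 0.0308, a call.

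At 24 h Nr4a1 was at 6.65, 5.81 and 5.05 in Ctrl and at 4.49, 4.93 and 4.98 in OGD cultures. The OGD values all lay below the Ctrl values, and the distance between the arrays of a slide was widest for replicate 1 (-2.16) and narrowest for replicate 3 (-0.07). In the model the log2 fold change was -1.04 (SE 0.38, 2.05-fold lower), with an unadjusted limma p of 0.0191 and an adjusted p of 0.308.

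Nr4a2 (Nurr1), which is required for midbrain dopamine neurons, had levels of 6.41, 6.09 and 6.05 in Ctrl and 6.72, 6.46 and 6.21 in OGD cultures at 7 h. The groups overlapped, and the log2 fold change was 0.28 (SE 0.37, p of 0.472 in limma). At 24 h the levels were 6.87, 6.15 and 5.05 in Ctrl and 4.91, 5.07 and 4.90 in OGD cultures. The 3 OGD cultures agreed within 0.17 log2 units, and Ctrl replicate 3 was at their level. The log2 fold change was -1.07 (SE 0.37, 2.09-fold lower), with an unadjusted limma p of 0.0159 and an adjusted p of 0.297. The other probe of Nr4a2 gave 0.05 (SE 0.37) at 7 h and -1.10 (SE 0.37) at 24 h, with an unadjusted p of 0.0123 for the latter, and its OGD array was below Ctrl (-0.10) on the replicate 3 slide of 7 h.

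Nr4a3 (Nor1) had levels of 3.001, 2.88 and 2.91 in Ctrl and 3.98, 3.94 and 3.25 in OGD cultures at 7 h. The Ctrl cultures were closely grouped, with an SD of 0.063, and all OGD cultures lay above them. This gave a log2 fold change of 0.79 (SE 0.38, 1.73-fold higher) with an unadjusted limma p of 0.0635 and an adjusted p of 0.449, and without OGD replicate 3 it was 1.03 with an unadjusted p of 0.0344, a call. At 24 h the levels were 4.85, 3.99 and 3.22 in Ctrl and 2.43, 3.15 and 3.18 in OGD cultures. Again the groups did not overlap, and here OGD lay below. In the model the log2 fold change was -1.10 (SE 0.38, 2.14-fold lower), with an unadjusted limma p of 0.0158 and an adjusted p of 0.297.

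The other probe of Nr4a3 differed from the brightest one in the size of the 7 h response. Its levels at 7 h were 1.55, 1.06 and 1.57 in Ctrl and 3.76, 3.96 and 2.94 in OGD cultures, which did not overlap. The log2 fold change was 2.16 (SE 0.39, 4.46-fold higher), with an unadjusted limma p of 0.000190 and an adjusted p of 0.174. At 24 h the same probe had -0.90 (SE 0.39), with an unadjusted p of 0.0408 and a fold under 2, and its value on the replicate 3 slide was 0.099. This probe takes its name from the study's own table and not from the RefSeq table used for the others, and which transcripts of the gene each probe binds was not determined here. With the probes of a gene averaged, the 7 h log2 fold change of Nr4a3 was 1.47 with an unadjusted p of 0.00194.

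Npas4 encodes a calcium-dependent transcription factor that governs inhibitory synapses onto active neurons. Its level at 7 h was 0.15, 0.66 and 1.84 in Ctrl and 1.57, 2.24 and 1.51 in OGD cultures. The groups overlapped through Ctrl replicate 3. This gave a log2 fold change of 0.89 (SE 0.43, p of 0.0634 in limma), and it was 1.37 with an unadjusted p of 0.00427 without that array and 0.53 with an unadjusted p of 0.252 without Ctrl replicate 1. After 24 h the level was 1.61, 2.47 and 1.66 in Ctrl and 0.52, 1.27 and 1.29 in OGD cultures. All OGD values lay below all Ctrl values, and thus also on 3 of 3 slides, with a log2 fold change of -0.88 (SE 0.43) and an unadjusted limma p of 0.0658, which is no call.

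Of the members that act at the synapse, Arc encodes a protein that promotes the internalization of AMPA receptors. Its levels at 7 h were 5.07, 4.36 and 6.14 in Ctrl and 4.67, 4.99 and 4.78 in OGD cultures. The OGD cultures lay within the range of the Ctrl cultures, and the log2 fold change of -0.37 (SE 0.63, p of 0.566 in limma) became 0.10 without Ctrl replicate 3. After 24 h of recovery the levels were 5.39, 5.79 and 5.21 in Ctrl and 2.79, 4.49 and 5.68 in OGD cultures. The OGD cultures spread over 2.90 log2 units around a log2 fold change of -1.14 (SE 0.63), so that a 2.21-fold lower mean had an unadjusted p of 0.0983 and was not called. The value was -0.38 without OGD replicate 1 and -1.83 without OGD replicate 3, which passed the thresholds.

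Homer1 encodes a postsynaptic scaffold protein that binds group I metabotropic glutamate receptors, and its short form is the one induced by activity. Which form the probe reports was not determined here. Its level at 7 h was 5.01, 4.93 and 4.65 in Ctrl and 4.04, 4.41 and 4.45 in OGD cultures. All OGD values lay below all Ctrl values, and thus also on 3 of 3 slides, with a log2 fold change of -0.57 (SE 0.28) and an unadjusted limma p of 0.0738. At 24 h it was 4.84, 4.64 and 4.30 in Ctrl and 3.29, 3.89 and 4.45 in OGD cultures. The groups overlapped through OGD replicate 3, and the log2 fold change of -0.72 (SE 0.28) had an unadjusted p of 0.0291 at 1.65-fold lower, under the fold for a call. It was -0.42 without OGD replicate 1, with an unadjusted p of 0.111, and -1.003 without OGD replicate 3, a call.

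**Figure D3:**
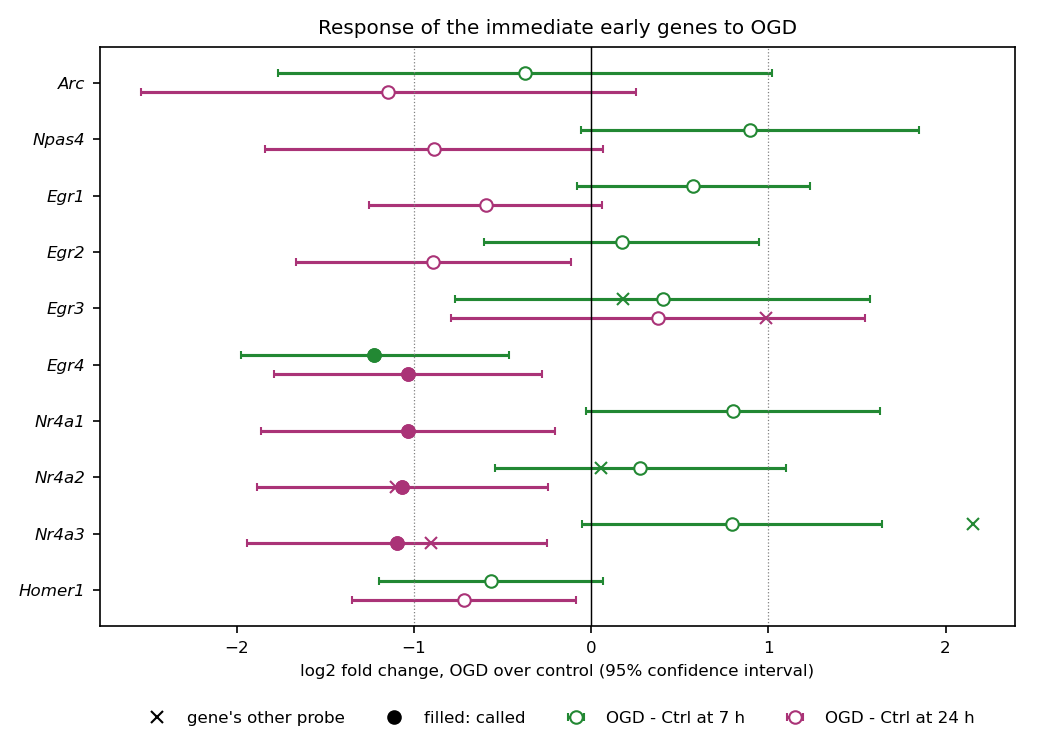
Log2 fold change of OGD over Ctrl at 7 h (green) and 24 h (purple) for each gene, with the 95% confidence interval from limma, with filled circles for calls, crosses for the other probe of a gene and dotted lines at a fold of 2. At 24 h 9 of the 10 genes lie below 0, and at 7 h 7 lie above it, of which Egr1, Egr2, Egr3 and Nr4a2 fell below 0 when the arrays were scaled to the spike-in probe.

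The 4 calls at 24 h lay close to the fold of 2 and depended on the test, the scaling and single arrays. None of the 4 genes passed the methods' t-test, whose unadjusted p-values were between 0.0836 and 0.117 at the same folds. With centring on the 75th percentile and with quantile normalization none was called, since the log2 fold changes, from -0.98 to -0.91, fell under the fold of 2, and with spike-in scaling none was called, at values from -2.12 to -2.06 with unadjusted p-values from 0.0577 to 0.0658. Without Ctrl replicate 1, which had the highest level of all 4 genes among the Ctrl cultures, none was called, and their log2 fold changes were between -0.68 and -0.63. Without OGD replicate 1, the dimmest array, Nr4a2 alone was called, and without OGD replicate 3 there were 6 calls. On the arrays of the later scan session none was called, with values from -1.04 to -0.85, and on the slides of replicates 2 and 3 none was called, with values from -0.62 to -0.44. All of these values were below 0. With each 7 h array left out in turn, the count at 7 h was 1 except without Ctrl replicate 3 (3 calls, adding Nr4a1 and Npas4) and without OGD replicate 3 (2 calls, adding Nr4a3). In the later scan session, where the spread of the single 7 h OGD array is taken from the other groups, the 7 h values were 0.47 for Nr4a1, 0.32 for Nr4a3 and 0.63 for Npas4.

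**Figure D4:**
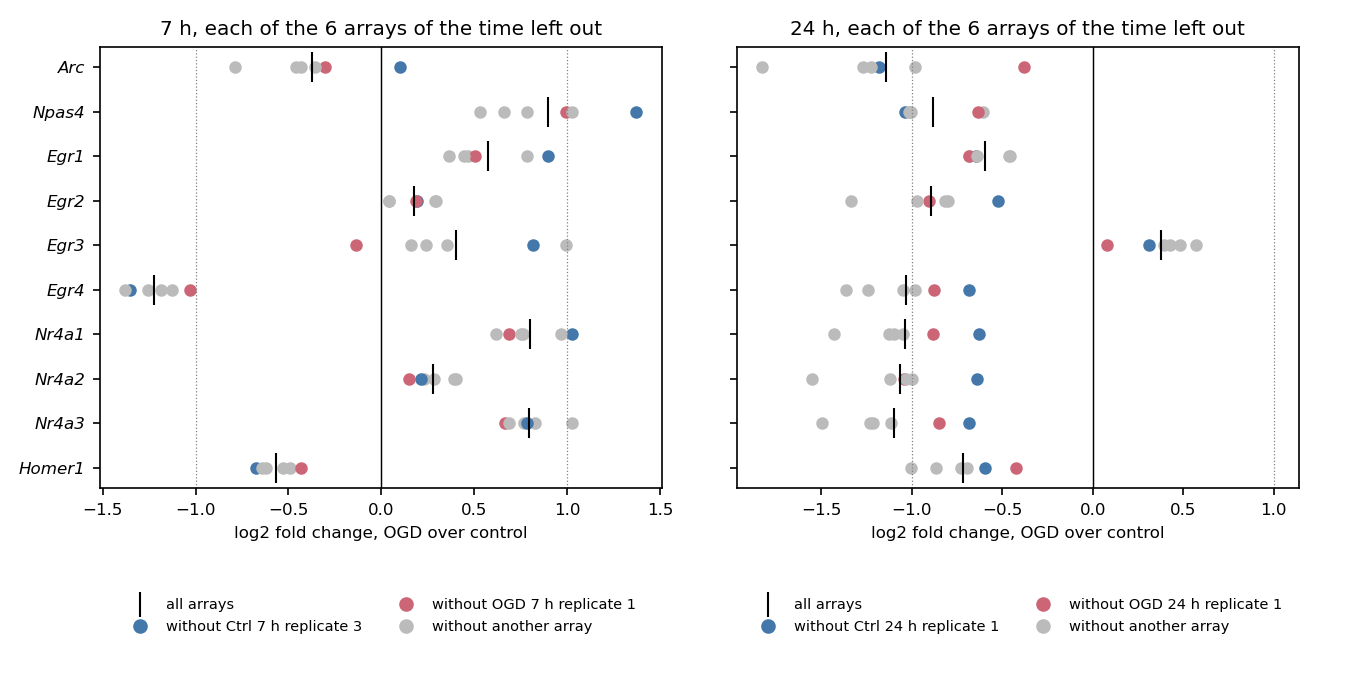
Log2 fold change of each gene at 7 h and 24 h over all arrays (black bar) and with each of the 6 arrays of that time left out in turn (points), with dotted lines at a fold of 2. After 24 h the values without Ctrl replicate 1 (blue) lie nearer to 0 for Egr4, Nr4a1, Nr4a2 and Nr4a3, and none of the points of these genes lies above 0.

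The question whether the response changed with recovery time was put to the difference of the log2 fold changes, 24 h minus 7 h, in the same model. The difference had an unadjusted p under 0.05 for 5 of 10 members, all lower at 24 h, beside 1.4% of all probes that passed in that direction and 3.58% in either. It was -1.89 (SE 0.54, p of 0.00530 in limma) for Nr4a3 and -1.84 (SE 0.53, p of 0.00559) for Nr4a1. Npas4 had a difference of -1.78 (SE 0.61, p of 0.0145), Nr4a2 of -1.34 (SE 0.53, p of 0.0275) and Egr1 of -1.17 (SE 0.42, p of 0.0184). The receptor genes, Npas4 and Egr1 thus had a response at 24 h that was lower than at 7 h. After adjustment over all probes each of these p-values was 1, as it was for every probe on the array. Egr2 had a difference of -1.07 (p of 0.0559). Egr4 had a difference of 0.19 (SE 0.48), Homer1 of -0.15 (SE 0.40) and Egr3 of -0.02 (SE 0.75), and that of Arc was -0.77 with an SE of 0.89. With SEs of this size the absence of a difference was not shown. Of the other probes, that of Egr3 had a difference of 0.81 (SE 0.40, unadjusted p of 0.0710 in limma). Those of Nr4a3 and Nr4a2 had -3.06 (SE 0.55, p of 0.000186) and -1.155 (SE 0.52, p of 0.0482). None of the 5 passed in the later scan session alone or with normexp background correction, but their differences were between -1.36 and -0.85 in that session and between -1.68 and -0.96, with unadjusted p-values from 0.0512 to 0.175, with normexp.

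The difference between the times includes a change in the Ctrl cultures. Nr4a1 was 1.40 log2 units (SE 0.38, unadjusted p of 0.00360, adjusted p of 0.150 in limma) higher in Ctrl cultures at 24 h than at 7 h, Nr4a3 1.09 (SE 0.38, p of 0.0166) and Npas4 1.03 (SE 0.43, p of 0.0369). These 3 of 10 members were called higher and 0 lower, beside 0.83% and 4.1% of all probes (4.93% in either direction). The other probe of Nr4a3 had 0.60 (SE 0.39, unadjusted p of 0.149 in limma) and was not called. In all, 14.7% of probes had an unadjusted p under 0.05 in this comparison. The count rested on Ctrl replicate 1 of 24 h, without which 1 member was called higher and 2 were called lower. Among OGD cultures, Egr2 was lower at 24 h than at 7 h by -1.70 (SE 0.35, unadjusted p of 0.000563, adjusted p of 0.0617), and Nr4a2 by -1.50 (SE 0.37, p of 0.00208). All 10 members had a value below 0 in that comparison on their brightest probe. Of the other probes, that of Nr4a3 had -2.46 (SE 0.39, adjusted p of 0.0290) and that of Nr4a2 -1.20 (SE 0.37), whereas that of Egr3 had 0.75 (SE 0.28, unadjusted p of 0.0236), in the opposite direction. The arrays of the 2 times lay on different slides and were scanned on different days, so that time, slide and scan day cannot be told apart in the comparisons within Ctrl and within OGD.

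Most members varied more between the cultures of a group than the median probe did in 3 of the 4 groups, over the probes well above background on all arrays. In the 24 h Ctrl cultures the SD was above the median of all probes (0.184) for 9 of 10 members, and it was 0.92 for Nr4a2, 0.82 for Egr2 and Nr4a3, 0.80 for Nr4a1 and 0.68 for Egr4. These 5 genes had their highest value in replicate 1 and their lowest in replicate 3. In the 7 h Ctrl cultures the SD was 0.89 for Arc, 0.87 for Npas4, 0.71 for Egr3 and 0.56 for Egr1, beside a median of 0.218 that 7 of 10 members exceeded, and these 4 genes had their highest value in replicate 3. In OGD cultures, 9 of 10 members at 7 h and 5 of 10 at 24 h were above the median SD. Members of 1 array share its culture, so these patterns are 1 observation per array and not 1 per gene.

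Genes of the same pathway were counted from 4 lists. Of 21 other early response genes with a probe, 4 were called higher and 0 lower at 7 h, beside 2.08% and 1.66% of all probes. Their median log2 fold change was 0.43. At 24 h 1 was called higher, beside 3.71% of all probes, with a median of -0.08. Ier3, a regulator of cell survival, was called at both times with 1.44 (SE 0.33) and 1.31 (SE 0.33), and Maff, a small Maf transcription factor, had 1.46 (SE 0.57) at 7 h. The other calls at 7 h, named after their values were seen, were Klf4 (1.40, SE 0.55) and the AP-1 component Junb (1.15, SE 0.26). Fos, given for reference, had 0.18 (SE 0.24) at 7 h and -0.44 (SE 0.24) at 24 h, without a call.

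Of 16 activity-regulated effector genes, which carry the response to synapses and neighbouring cells, 2 were called lower at 7 h and 4 at 24 h. The shares of all probes called lower were 1.66% and 1.96%. None of the effector genes was called higher, and their medians were -0.18 and -0.74. Pcdh8, an adhesion protein of synapses, had -1.59 (SE 0.64) and -1.47 (SE 0.64). Rasgrp1, an activator of Ras, had -2.01 (SE 0.41) and -1.72 (SE 0.41), but was well above background on 8 of 12 arrays only. The others called at 24 h, also named after their values were seen, were Inhba (-1.21, SE 0.47), a subunit of activin, and Ptgs2 (-1.08, SE 0.25), the inducible cyclooxygenase. None of 12 upstream regulators, such as Creb1 (0.14 and 0.04) and Srf (0.23 and -0.13), and none of 15 partners of the member proteins was called at either time, and the medians of these lists were 0.01 and -0.09 for the regulators and -0.12 and -0.65 for the partners.

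**Figure D5:**
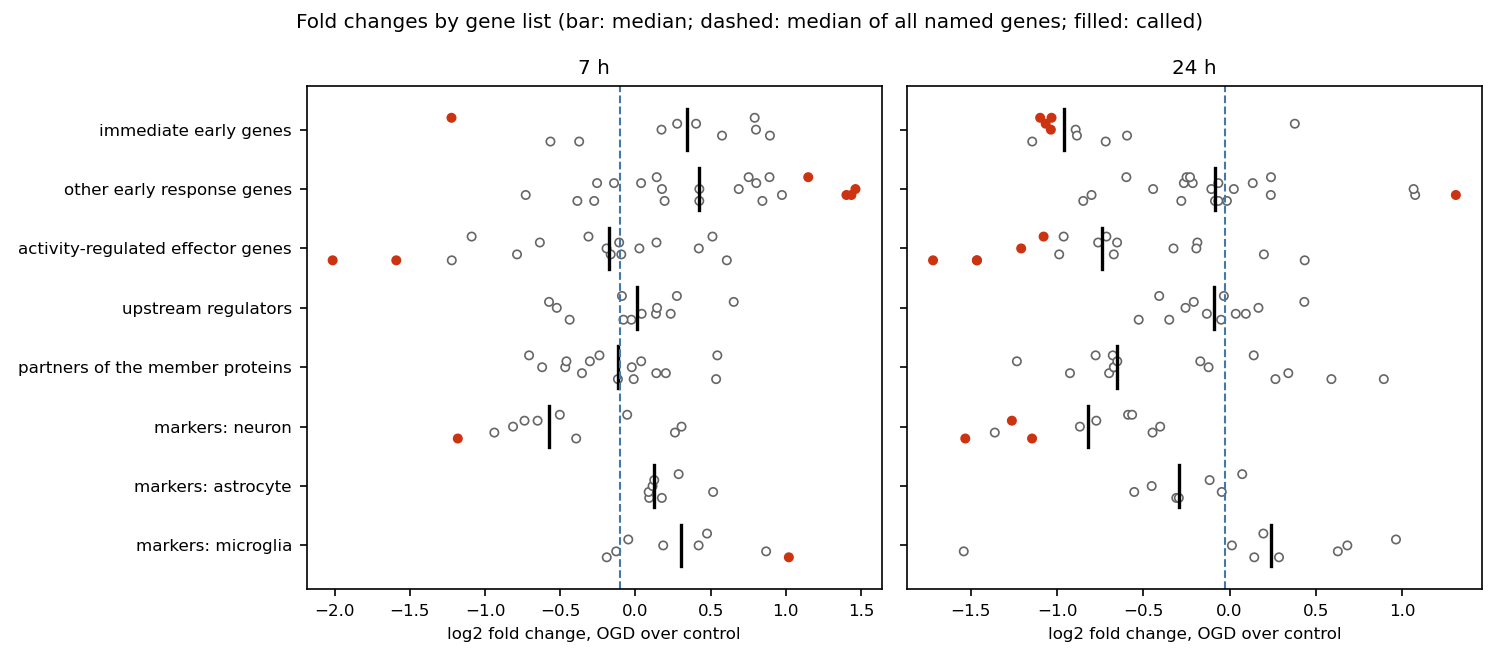
Log2 fold change of OGD over Ctrl at 7 h and 24 h for each gene with a probe in 8 gene lists, with filled red points for called genes, a black bar at the median of a list and a dashed line at the median of all named genes. After 24 h of recovery the medians of the immediate early genes (-0.96), the neuronal markers (-0.82) and the effector genes (-0.74) lie to the left of the dashed line (-0.03). So do those of the partners (-0.65), the astrocyte markers (-0.29), the upstream regulators (-0.09) and the other early response genes (-0.08). That of the microglial markers (0.24) lies to its right.

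Markers of the cell types that the culture could hold were measured on the same arrays. Their calls stand beside 1.66% of all probes called lower and 2.08% called higher at 7 h, and 1.96% and 3.71% at 24 h. Of the 10 neuronal markers, 8 were below 0 at 7 h and 10 at 24 h, with medians of -0.58 and -0.82. Called lower were Slc17a7, the vesicular glutamate transporter, with -1.18 (SE 0.45) at 7 h and -1.53 (SE 0.45) at 24 h, and at 24 h Syn1 (-1.26, SE 0.36) and, named after its value was seen, the GABA-synthesizing enzyme Gad1 (-1.14, SE 0.47). The mean level of the neuronal list was between 4.64 and 4.94 in Ctrl and between 4.03 and 4.62 in OGD cultures at 7 h. At 24 h it was between 4.82 and 5.29 and between 3.30 and 4.64, so that the groups did not overlap at either time. Among single probes, all OGD values lay below all Ctrl values for 15.5% at 7 h and 7.02% at 24 h. These shares are no baseline for a mean over 10 genes, whose spread differs from that of 1 probe. The astrocyte list had medians of 0.13 and -0.29 and no call. The microglial list had medians of 0.30 and 0.24 with Cx3cr1 called higher at 7 h (1.02, SE 0.27). No oligodendrocyte marker was called, and of the vascular markers Cldn5 was called lower at 7 h (-1.48, well above background on 6 of 12 arrays) and Pdgfrb higher at 24 h (1.34). The part of these shifts in the values of the immediate early genes was not tested, and in RNA from whole cultures fewer neurons and less RNA per neuron cannot be told apart.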

How the data were processed

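RNA of 12 samples was labeled with Cy3 and hybridized to Agilent one-color arrays, with probes designed on the rn4 build. The study's methods name 3 independent cultures as the biological replicates. Whether arrays of different groups share a culture preparation is not stated there. The authors read them with Agilent Feature Extraction 10.5.1.1 (protocol GE1_105_Dec08), and the deposited intensity values are its processed signals, background-subtracted and corrected for trends across the array, and not yet scaled from array to array. A table of log2 values made by the authors through median centring was also deposited and served as an alternative.

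Spots marked as outliers were dropped. Each probe's value is the mean of its log2 spots less the array's median over non-control probes. Of 30367 probes, 18005 were named through the RefSeq table (GRCr8) or, for 1 probe of Nr4a3, the study's table, and 12362 stayed unnamed. No filter on signal was applied. The 4 groups were fitted in 1 limma model (limma 3.58.1, R 4.3.3), with two-sided p-values and Benjamini-Hochberg adjustment over the whole array. A probe was called at an unadjusted p under 0.05 and a fold of at least 2, and the difference between times at that p alone. The fit was tested on simulated data. The precision of the values is limited by the number of arrays, 3 a group.

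The members and the gene lists were chosen with earlier results of these data known. The text names all 10 members and, for each list and time, up to 2 called genes at either end, and other names are marked as chosen after their values were seen or serve as reference. Alternatives were other scalings, background corrections, filters and tests, the slide or scan session as a block, and each array left out. Normexp was run on the median signal of each spot because the files used here hold no mean signal. The scan session alternatives and the slides of replicates 2 and 3 alone were added after seeing the data.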

Additional observations from a re-analysis of the deposited data

Results flagged for a closer look

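The difference between the OGD response at 24 h and at 7 h passed an unadjusted p under 0.05 in limma for 5 immediate early genes, and this test of the difference is what marked them. It was -1.89 for Nr4a3, -1.84 for Nr4a1, -1.78 for Npas4, -1.34 for Nr4a2 and -1.17 for Egr1 on the log2 scale, with an adjusted p of 1 for each. In the Ctrl cultures, Nr4a1, Nr4a3 and Npas4 were also higher at 24 h than at 7 h, by 1.40, 1.09 and 1.03 on their brightest probes. The other probe of Nr4a3 had 0.60 there, without a call.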

How the results depend on the processing

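Over the single-gene values, 680 alternative results kept direction and side of the thresholds, 62 lost a call, 14 gained one and 34 changed sign. Settings that changed only the test, or left out an array of the other time, could not move the log2 fold change of a time. A value without a call that stayed without one also counts among the 680, so this tally does not measure stability. The 1 member call at 7 h became 0 with spike-in scaling and on the slides of replicates 2 and 3 alone, 2 with normexp or with probes of a gene averaged, and 1 to 3 with an array left out. The 4 calls at 24 h became 0 with centring on the 75th percentile, quantile normalization, spike-in scaling, the methods' t-test, the later scan session alone and the slides of replicates 2 and 3 alone, and 0 to 6 with an array left out. With the 75th percentile and quantiles the 4 genes stayed at an unadjusted p under 0.05 and had log2 fold changes from -0.98 to -0.91, under the fold of 2. The 5 differences between times became 0 with spike-in scaling, normexp and the later scan session, 1 on the slides of replicates 2 and 3, and 4 to 6 with an array left out. The 3 Ctrl calls became 10, all lower, with spike-in scaling, which shifted the median of all probes by -4.60 in that comparison, 1 with normexp, 0 on the slides of replicates 2 and 3, and 2 to 3 with an array left out (1 higher and 2 lower without Ctrl 24 h replicate 1). With the 75th percentile, with quantiles and with probes of a gene averaged, the Ctrl calls became 2. The cause of these changes was not tested.

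Over all probes, the 1136 calls at 7 h (631 higher, 505 lower) became 349 with spike-in scaling (80 and 269), 2918 with normexp (2047 and 871), 719 with the scan session as a block and 664 to 1750 with an array left out, and with the 75th percentile the split was 708 and 349. The 1721 calls at 24 h (1126 and 595) became 542 with spike-in scaling (20 and 522), 743 with normexp (190 and 553), 634 with the methods' t-test, 1117 with the scan session as a block, 863 in the later session, 543 on the slides of replicates 2 and 3, and 814 to 3045 with an array left out. Spike-in scaling, which rests on 1 probe, moved the median of all probes to -0.83 at 7 h and -1.01 at 24 h, and moved the members by the same amount.

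Sign changes were as follows. At 7 h, spike-in scaling gave Egr1 -0.20, Egr2 -0.61, Egr3 -0.38 and Nr4a2 -0.50, and normexp gave Egr2 -0.21 and Nr4a2 -0.30. The scan session as a block gave Arc 0.38 and Egr3 -0.49, the later session Egr2 -0.064 and Egr3 -0.78, and the slides of replicates 2 and 3 Egr3 -0.38. With an array left out, Arc ranged from -0.79 to 0.10 and Egr3 from -0.14 to 0.99. At 24 h, Egr3 was -0.65 with spike-in scaling and -0.066 with the scan session as a block. For the difference between times, Arc was 0.027 in the later session. Egr3 was 0.39 with the mean over probes, 0.42 with the scan block, 0.86 in the later session, 0.40 on the slides of replicates 2 and 3 and -0.62 to 0.52 with an array left out. Egr4 was -0.056 with spike-in scaling and -0.14 to 0.54 with an array left out. Homer1 was 0.067 with normexp, 0.058 on the slides of replicates 2 and 3 and -0.44 to 0.14 with an array left out.

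The replicate numbers mark the slides. The deviations of the Ctrl and OGD arrays of a slide from their group means correlated between -0.05 and 0.17, so the numbers were not taken as pairs. With the slide as a fixed replicate block the member counts were 1 at 7 h, 4 at 24 h and 5 for the difference, as without it, and 1158 and 1588 probes were called at 7 h and 24 h.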
